A study of Drosophila melanogaster with 3 samples.

Results

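A set of 5 genes known to work with or beside Ets97D in the control of mitochondrial mass were followed through the binding map of Ets97D in Drosophila melanogaster embryos: srl, CycD, Cdk4, ewg and ERR. These are 5 of 13968 protein-coding genes, chosen by name from what is known of them, but with earlier results of these data known. A region was counted for a gene when its summit, the base of highest enrichment given by the authors, lay in the gene or within 2000 bp of it. These genes with their flanks are called loci here, and they span 50208 bases in all. The series holds 1 group of 3 biological replicates. Each was whole embryos, 0 to 24 h old and of both sexes, from the transgenic strain Delg-GFP, in which Ets97D carries eGFP at its C terminus. Chromatin was sheared by sonication, with a size range given as 200 to 800 without a unit, and precipitated with an antibody against GFP before sequencing (ChIP-seq). No other genotype, treatment or age was in the group, and the sequence that drives the fusion gene is not given in the sources used here. Whole embryos mix many cell types and stages, so strong binding in few cells and weak binding in many cannot be told apart.

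Ets97D, also called Delg, is an ETS factor and the fly relative of the DNA-binding subunit of mammalian GABP (NRF-2), which regulates nuclear genes for mitochondrial proteins. The protein of srl (Spargel) is the fly PGC-1 relative, a coactivator without a DNA-binding domain of its own that works through factors such as GABP, NRF1 and the estrogen-related receptors in mammals. CycD and Cdk4 form a cyclin and kinase pair that drives cell growth in flies, and their effect on mitochondria has been linked to Delg. The fly relative of NRF1 is ewg (erect wing), known for its roles in neurons and flight muscle. ERR is the only fly estrogen-related receptor, and it switches on genes of carbohydrate metabolism in the embryo before larval growth.

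The authors' regions were read from a list for each replicate, a list for the pooled replicates and the optimal set. The optimal set holds the pooled regions kept by the authors at a threshold on IDR (irreproducible discovery rate), a measure of how well replicates rank the same regions. The pooled list held 27625 regions and the optimal set 5595, which were the 5595 pooled regions of highest signal. The lowest optimal signal was 89.1 and the median 162. Signals are the authors' enrichment values per region, on a scale that is not stated. To compare replicates, each signal was divided by the median signal of that replicate's 5595 strongest regions, and this ratio is called the relative signal. The lists held no read counts, so depth is unknown and no counting interval can be given. Control libraries were not analysed here, and background means the share of all protein-coding genes with the same feature.

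DNA at or near summits outside the Cdk4 locus is shown because the results turn on where the summits lie and on which short words lie there. All sequences are the RefSeq Release 6 genome (dm6 coordinates) and are written 5′ to 3′. Capitals mark any of 8 words that were searched on both strands. These were CCGGAA and its longer form CCGGAAG, the core recognised by ETS factors; TATCGATA, the DNA replication-related element (DRE); CGATA, bound by the boundary factor BEAF-32 and part of every DRE; GGTCACAC, the core promoter word Motif 1; GCGCATGC, the centre of the NRF1 site; CAAGGTCA, a site of estrogen-related receptors; and CACGTG, the E-box of Myc and Max. The first line is chr3R:4429326-4429425, reverse strand, at the srl start site, and its last 10 bases are transcribed. The second is chrX:15910110-15910210, reverse strand, the summit window between CycD and Lrp4. The ewg lines are chrX:279548-279577 and chrX:279582-279611, forward strand. The last lines are chr3L:8186934-8186963, forward strand, in the 5′ UTR of Atg18a, and chr3L:8185814-8185914, reverse strand, the window of the inner ERR summit.
srl: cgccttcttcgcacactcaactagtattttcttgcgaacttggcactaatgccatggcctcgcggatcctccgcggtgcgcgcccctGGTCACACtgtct
CycD: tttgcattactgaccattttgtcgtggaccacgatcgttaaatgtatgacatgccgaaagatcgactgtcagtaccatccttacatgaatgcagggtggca
ewg DRE site: tacatgacaaaTATCGATAtacagcacgcg
ewg summit: tttttcagacgtCGATAatgtacacgcaat
Atg18a site: ttccagcactgGCGCATGCaactctgctct
ERR inner: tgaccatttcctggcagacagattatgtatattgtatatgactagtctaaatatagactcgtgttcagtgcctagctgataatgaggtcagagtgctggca

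Each of the 5 genes had an optimal peak in its locus. All 5 also had one at a promoter of their own, defined as the 500 bp either side of an annotated transcription start site (TSS). Among all protein-coding genes, 51.7% had an optimal summit in the gene or within 2000 bp, and 63.5% of the 3783 genes whose loci were 6855 to 15210 bp long, the range of the 5 genes, had one. An optimal summit within 500 bp of an own TSS was found at 36.5% of all genes. When each summit was given only to its nearest TSS, 26.9% of genes kept one, and so did all 5, ERR through its inner summit. Since the genes were chosen with results of these data known, no test was made of the count.

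The loci held 9 optimal peaks. The loci of srl, CycD and ewg had 1 each, ERR had 2 and Cdk4 had 4. At least 2 optimal summits in the locus were found at 22.2% of all genes and here at 2 of 5, while at least 4 were found at 1.89% of genes and here at Cdk4 alone. At least 2 optimal summits within 500 bp of own TSSs occurred at 5.33% of genes, and ERR was the 1 of the 5 to have them. All 9 peaks had a region within 150 bp in each of the 3 replicates, as had 96.1% of the whole optimal set. In 5 of the 9, the matched region was among the 5595 strongest of every replicate, against 69.1% of the whole set. These 5 were the srl, CycD and ewg peaks, the outer ERR peak, and the peak beyond the 3′ end of Cdk4.

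**Figure D1:**
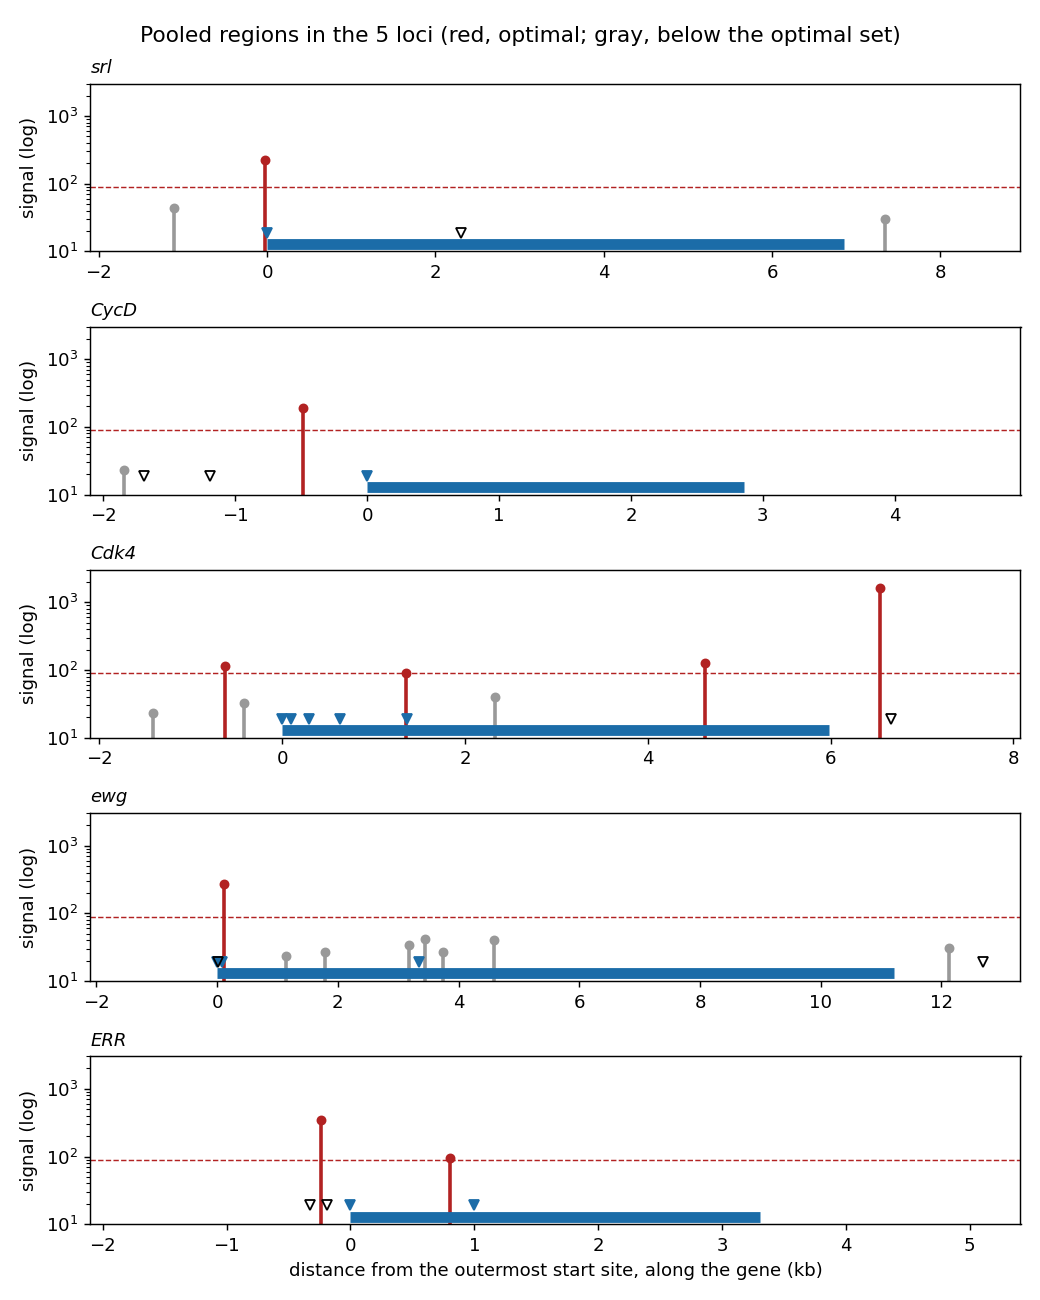
Pooled regions in the 5 loci, drawn along each gene from its outermost start site (x axis, kb; negative values are upstream), with the authors' pooled signal on a log y axis. Red stems are optimal peaks and gray stems pooled regions below the optimal set, the dashed line is the lowest optimal signal of 89.1, blue bars are the genes, filled triangles their start sites and open triangles start sites of other genes. The srl, ewg and outer ERR stems stand at or near gene starts, the CycD stem stands at -484 bp, and the highest stem, 1611 in the Cdk4 panel, stands next to a start site of another gene.

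The coactivator gene srl had its single optimal peak directly at its start. The gene srl (FBgn0037248) lies on chr3R:4422483-4429335, reverse strand, and its 3 annotated transcripts share 1 TSS at 4429335. The peak covered chr3R:4429133-4429582 with a pooled signal of 221, and its summit lay at -23 bp from the TSS (negative positions are upstream). Replicates 1, 2 and 3 gave it signals of 58.8, 81.3 and 85.4. Relative to the replicates' medians these were 1.12, 1.53 and 1.41, so the peak stood above the median strong region in each, and lowest in replicate 1. The mean relative signal was 1.35 ± 0.210 (SD, n = 3). Of all optimal promoter peaks, 66.3% had a lower pooled signal. Motif 1, in capitals in the printed srl line, ran across the TSS and lay 20 bp from the summit. It was the only one of the 8 words within 50 bp of that summit.

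Around srl little else was recovered. Replicates 1 and 3 each listed a weaker region about the same distance upstream, with summits at -178 and -175 bp and signals of 20.4 and 30.3, and replicate 2 listed none there. A pooled region of signal 43.6 lay at -1108 bp in a coding exon of the neighbouring eIF3a, a translation initiation factor gene, and was found in replicates 1 and 3. A pooled region of 29.6 beyond the 3′ end of srl was matched in replicate 3 alone. Both fell well under the optimal limit of 89.1.

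At CycD, the cyclin gene, the peak sat between genes and at the far edge of the promoter window. CycD (FBgn0010315) lies on chrX:15906822-15909676, reverse strand, with 1 TSS for its 3 transcripts. The optimal peak, chrX:15910085-15910290, had its summit at -484 bp, in the stretch between CycD and the divergent Lrp4, a gene for an LDL receptor-related protein. Only 0.267% of the 4118 optimal promoter summits lay as far or farther upstream of their nearest TSS. By definition these 4118, 73.6% of the optimal set, lay within 500 bp of a TSS. Only summits between -484 bp and that limit could therefore count. The share does not say how rare the position was among all optimal peaks. The median promoter summit lay at -52 bp, with quartiles at -108 and -15 bp. The pooled signal was 190, higher than that of 56.9% of optimal promoter peaks.

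Replicates placed the CycD peak within 24 bp of each other and gave it nearly the same strength. Its signals were 58.5, 66.5 and 72.3 in replicates 1, 2 and 3, and its relative signals 1.12, 1.25 and 1.19. The mean was 1.19 ± 0.0672 (SD, n = 3), a coefficient of variation of 5.66%, and 92.3% of optimal peaks matched in every replicate varied more. Replicate 1 put the summit at -505 bp, just outside the promoter window, and replicates 2 and 3 at -481 and -482 bp, just inside it. No region of any list had a summit nearer to the CycD TSS. The printed CycD window held none of the 8 words, nor did the 100 bp either side of the summit. The other pooled region of this locus, of signal 23.0, lay in the 5′ UTR of Lrp4 and was matched in replicate 3 alone.

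The ewg peak was the most even of the set. The gene (FBgn0005427) lies on chrX:268509-279718, reverse strand, with 13 transcripts and TSSs at 279718, 279634 and 276377, of which the middle one starts 11 transcripts. The optimal peak, chrX:279502-279695, was 194 bp wide, with its summit in the 5′ UTR 37 bp downstream of that main TSS. The same summit lay at -106 bp from the TSS of CG3777, a divergent gene that starts 15 bp from an ewg TSS, so the peak is shared between both promoters. The pooled signal was 267, and 75.9% of optimal promoter peaks had less.

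In replicates 1, 2 and 3 the ewg signals were 85.0, 83.8 and 89.5, and the relative signals 1.62, 1.58 and 1.48. Their mean was 1.56 ± 0.0730 (SD, n = 3) and the summits fell within 16 bp. The coefficient of variation was 4.68%, and 94.6% of matched optimal peaks had a larger one. A DRE lay 31 bp from the summit, shown in capitals in the first ewg line, and a further CGATA lay across the summit itself, shown in the second. One more CGATA lay 18 bp away on the other side. A further 7 pooled regions in the locus had signals of 23.2 to 41.3, and 3 of them had summits within 500 bp of the inner TSS at 276377. Each of those 3 was matched in 1 replicate, a different one each time, so no pooled summit there was matched in all replicates. That depends on the 150 bp used for matching. Replicates 1, 2 and 3 each listed a region there, and these overlapped one another. Their summits lay at -171 bp, 313 bp downstream and 61 bp downstream of the inner TSS.

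ERR, the nuclear receptor gene, carried the strongest promoter peak of the 5 genes, in DNA it shares with Atg18a, an autophagy gene. ERR (FBgn0035849) lies on chr3L:8183361-8186671, reverse strand, with TSSs at 8186671 and 8185670 for 1 transcript each. Atg18a starts on the opposite strand 186 bp from the outer ERR TSS. The outer optimal peak, chr3L:8186818-8187040, had its summit in the 5′ UTR of Atg18a, 48 bp downstream of the Atg18a TSS and at -234 bp from the ERR TSS. By distance it belongs to Atg18a first. Its pooled signal of 343 exceeded that of 85.6% of optimal promoter peaks.

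At this outer peak the signals were 92.3, 124 and 129 in replicates 1, 2 and 3. It ranked 1076, 593 and 721 in their lists. The relative signals were 1.76, 2.32 and 2.13, with a mean of 2.07 ± 0.286 (SD, n = 3), again lowest in replicate 1. All 3 lay above every relative signal of srl, CycD and ewg. The NRF1 word lay 40 bp from the summit on the Atg18a side, as printed.

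A second optimal peak of ERR, chr3L:8185639-8186088, lay in an intron of the longer transcript, at -194 bp from the inner TSS. It was weak, with a pooled signal of 93.6, and only 4.63% of the optimal set had less. The replicate signals of 28.1, 29.2 and 29.7 gave relative signals of 0.536, 0.550 and 0.491, with a mean of 0.525 ± 0.0307 (SD, n = 3). Those values hardly differed between replicates, yet none was among the 5595 strongest regions of its replicate. The inner and outer peaks of ERR did not overlap in relative signal. None of the 8 words lay within 50 bp of the inner summit, as its printed window shows.

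Narrow peaks numbered 3 in these loci: those of ewg (194 bp), CycD (206 bp) and the outer ERR promoter (223 bp). The most common width in the pooled list was 450 bp, and 24.8% of optimal peaks were narrower.

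Cdk4, the kinase partner of CycD, had the most optimal peaks and the weakest promoter peak. Cdk4 (FBgn0016131) lies on chr2R:16579470-16585448, forward strand, with 5 transcripts that each start at a TSS of their own. Of its 4 peaks, only the weakest lay within 500 bp of one of them. That peak, with a pooled signal of 90.6, had its summit at -11 bp from the innermost TSS, in an intron of the longer transcripts. It ranked 5524 of 5595, and its signal was 1.02 times the lowest in the optimal set. The authors' −log10 q value there was 3.57, and at the inner ERR peak 3.55, while the other 7 peaks shared 1 higher value.

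Signals at the Cdk4 promoter were 23.9, 30.2 and 26.4 in replicates 1, 2 and 3, and the relative signals 0.456, 0.568 and 0.436, with a mean of 0.487 ± 0.0711 (SD, n = 3). In no replicate was it among the 5595 strongest regions. The replicates also placed it less exactly than the promoters of the other genes, with summits spread over 143 bp. Over the 1119 weakest optimal peaks the median spread was 62 bp. Replicates 2 and 3 each listed a second, weaker region that overlapped the matched one. Its summit lay 138 and 124 bp downstream of the innermost TSS, also within the 150 bp used for matching. The spread of 143 bp therefore depends on the nearest summit being taken. A DRE lay 33 bp from the pooled summit and another BEAF-32 word 11 bp from it. The short ETS word began 46 bp away and ran past the 50 bp limit. No other ETS word lay wholly within 100 bp of any of the 9 optimal summits.

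A further pair of Cdk4 peaks lay outside its promoter windows. One lay in intergenic DNA at -631 bp from the outermost TSS, just beyond the promoter window, with a pooled signal of 117. Its signals in replicates 1, 2 and 3 were 49.3, 20.6 and 45.0. Relative to the medians these were 0.939, 0.388 and 0.744, so replicate 2 was low, and there the region ranked 8686 against 3057 in replicate 1 and 4142 in replicate 3. The coefficient of variation of 40.5% was exceeded by 9.76% of matched optimal peaks. It was among the 5595 strongest regions in replicates 1 and 3 and not in replicate 2. The other lay in an intron 3260 bp downstream of the innermost TSS, with a pooled signal of 125. The matched regions had relative signals of 0.540, 0.560 and 0.878 in replicates 1, 2 and 3. Replicate 2 also listed an overlapping region of 0.708, among its 5595 strongest, whose summit lay beyond the 150 bp used for matching, so the lower value of replicate 2 and the spread depend on that choice. None of the 8 words was found within 50 bp of either summit. The pooled regions of Cdk4 below the optimal set had signals of 39.7, 32.1 and 23.6, and each was missing from at least 1 replicate.

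The strongest peak of all 5 loci lay beyond the 3′ end of Cdk4 and belonged by position to the next gene. Its summit was at -114 bp from the TSS of RpLP2, which encodes a protein of the ribosomal stalk, and 5182 bp downstream of the nearest Cdk4 TSS. The pooled signal was 1611, rank 103 of the pooled list. Signals were 517, 604 and 549 in replicates 1, 2 and 3, and relative signals 9.87, 11.4 and 9.06, with a mean of 10.1 ± 1.16 (SD, n = 3). Of all optimal promoter peaks 98.0% were weaker. It entered the Cdk4 count through the 2000 bp flank, and without it Cdk4 had 3 optimal peaks. A BEAF-32 word lay 10 bp from its summit.

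**Figure D2:**
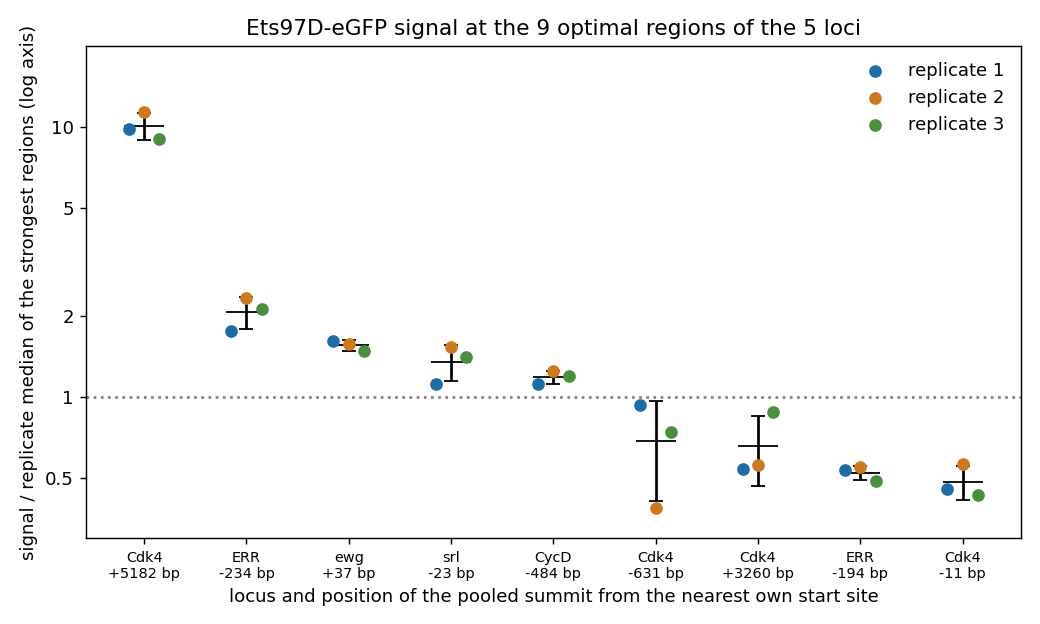
Relative signal (log y axis; 1, dotted, marks the median strong region of that replicate) at the 9 optimal peaks, ordered by mean, with the distance of each pooled summit from the nearest start site of the named gene on the x axis. Dots are the 3 replicates, long bars means and whiskers 1 SD. The peak next to RpLP2 (Cdk4 +5182 bp) stands apart at 10.1, the promoter peaks of ERR, ewg, srl and CycD lie between 1.19 and 2.07, and the other Cdk4 peaks and the inner ERR peak lie below 1.

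In order of mean relative signal, the peaks ran from the RpLP2 peak in the Cdk4 locus through the outer ERR peak, ewg, srl, CycD, the upstream Cdk4 peak, the intronic Cdk4 peak and the inner ERR peak to the Cdk4 promoter. Each of the 8 neighbouring pairs was compared by an exact two-sided sign-flip permutation test on the log2 differences within replicates, which with 3 replicates cannot give a p below 0.25. The outer ERR peak exceeded ewg by 0.40 ± 0.25 (SD, n = 3) on the log2 scale, with ranges that did not overlap (exact p = 0.25, adjusted 0.333). CycD exceeded the upstream Cdk4 peak by 0.87 ± 0.74, also without overlap (exact p = 0.25, adjusted 0.333; n = 3). The lead of ewg over srl, by 0.22 ± 0.28, and that of srl over CycD, by 0.18 ± 0.15, held in 3 of 3 replicates, but their ranges overlapped (exact p = 0.25 for each, n = 3). The mean difference within replicates was smaller than its SD for ewg over srl and larger than its SD for srl over CycD, and the test cannot reach 0.05 for either.

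Below the level of CycD the order was not fixed by the data. The upstream Cdk4 peak was above the intronic one in 1 of 3 replicates, with a log2 difference of 0.01 ± 0.70 (exact sign-flip p = 1). The intronic Cdk4 peak was above the inner ERR peak in 3 of 3, by 0.29 ± 0.47, with overlapping ranges (exact sign-flip p = 0.25). The inner ERR peak was above the Cdk4 promoter in 2 of 3 (0.12 ± 0.15, exact sign-flip p = 0.5, adjusted 0.571). The largest step between neighbours was from the RpLP2 peak to the outer ERR peak, 2.29 ± 0.20 on the log2 scale in 3 of 3 replicates (exact sign-flip p = 0.25, adjusted 0.333).

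**Figure D3:**
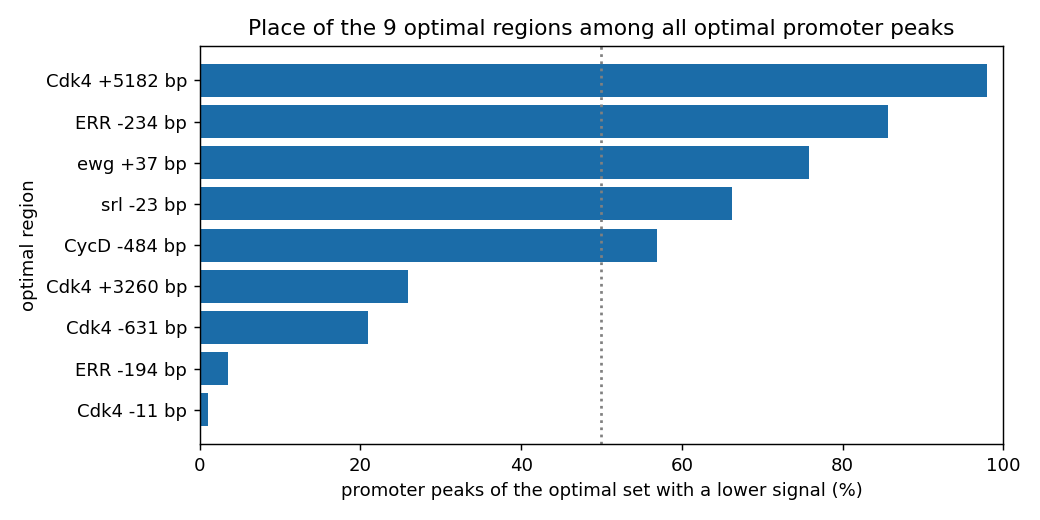
Share of the 4118 optimal promoter peaks with a pooled signal lower than each of the 9 optimal peaks of the 5 loci (x axis, %; dotted line, 50%). Bars of the promoter peaks of ERR, ewg, srl and CycD end between 56.9% and 85.6%, and the Cdk4 promoter bar is near 0.

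By replicate, the weak Cdk4 promoter and the distant CycD summit decided how many of the 5 genes were counted. With the 5595 strongest regions of replicate 1 in place of the optimal set, 3 of 5 had a summit within 500 bp of an own TSS, namely srl, ewg and ERR, where 35.6% of all genes had one. In replicate 2 it was 4 of 5 (background 36.6%) and in replicate 3 again 4 of 5 (background 34.7%), CycD being added in both. Cdk4 was counted in none.

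Replicate variation at the 9 peaks followed no single rule of strength. Over the whole optimal set the median coefficient of variation was 11.2% for the 1119 strongest peaks and 27.1% for the 1119 weakest. The inner ERR peak, among the weakest, had 5.84%, and CycD and ewg, between the extremes, had 5.66% and 4.68%. The upstream and intronic Cdk4 peaks had 40.5% and 28.8%, and the peaks in the signal range that holds them, 111 to 141, had a median of 23.7%.

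The 5 loci also held 13 pooled regions below the optimal set, with signals from 23.0 to 43.6. Each was matched in 1 or 2 replicates and 0 of them in all 3. Of the 22030 such regions in the genome, which reach up to the limit of 89.1, 18.7% were matched in all 3. The optimal set was itself chosen for agreement between replicates, so it was not compared with these regions. ERR held none. No signal in any locus fell between 43.6 and the limit of 89.1, and the Cdk4 promoter at 90.6 and the inner ERR peak at 93.6 were those just inside. Of the 65 replicate regions in the loci, 16 had no pooled summit within 150 bp. The strongest of these 16, with a signal of 130 in replicate 2, lay next to the RpLP2 peak.

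Words at the summits were read against all optimal peaks. Of the 9 optimal summits, 5 had at least 1 of the 8 words wholly within 50 bp, and 0 had CCGGAA. The share of all optimal peaks with any of the 8 words is not given here, so the count of 5 has no background. CGATA alone was present in 31.5% of optimal windows. Within 100 bp, 1 of the 9 summits had CCGGAA, that of the Cdk4 promoter. The share of all optimal peaks with CCGGAA within 100 bp is not given here. A count of 0 among 9 is near the background, since among all optimal peaks CCGGAA was present in 4.74% of such windows of 101 bases, against 3.84% of pooled regions below the optimal set and 2.38% of promoters (the TSS and 100 bases upstream). The longer form CCGGAAG was present in 1.25% of optimal windows. The DRE occurred in 7.63%, CGATA in 31.5%, Motif 1 in 5.81% and the NRF1 word in 0.286% of optimal windows. In promoters these shares were 6.29%, 28.4%, 3.06% and 0.465%. The receptor word CAAGGTCA (0.125% of optimal windows, 0.165% of promoters) and the E-box (1.27% and 1.05%) lay at none of the 9 summits.

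Over the whole loci, CCGGAA occurred 19 times, 4 times each at srl and ewg, 6 times at Cdk4, 3 times at ERR and 2 times at CycD. None lay within 50 bp of an optimal summit, and 1, at Cdk4, lay 4 bp from the summit of a pooled region below the optimal set (signal 23.6). In the genome 298 of 46710 CCGGAA sites (0.638%) lay at an optimal summit and 1242 at a summit of any pooled region, so sites away from summits were the rule there too. The DRE occurred 2 times in the loci, once at ewg and once at Cdk4, both at optimal summits. In the genome 10.8% of 4157 DREs lay at one. Of 3 Motif 1 words 1 was at an optimal summit, that of srl, and 10.8% of 3114 were in the genome. Of 2 NRF1 words in the loci 1 was, that at Atg18a, and 0.506% of 3163 were in the genome. The loci were chosen with results of these data known and hold 9 optimal peaks in 50208 bases. The genome is therefore not a matched baseline for these few words. A word is a match of letters and not evidence that a factor was bound.

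The gene for Ets97D itself had an optimal peak at its start. Its summit lay at -38 bp from the TSS, with a pooled signal of 303 and relative signals of 1.79, 2.00 and 1.87 (mean 1.89 ± 0.106, SD, n = 3). These lay above all 3 values of ewg and of the Cdk4 promoter, and within the range of the outer ERR peak. A second optimal peak of 90.8 at -237 bp had a matched region in replicates 2 and 3 and none in replicate 1. Signal from the gene and from the fusion transgene cannot be told apart.

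Promoters whose 3 relative signals were most like those of the 5 genes were found by Euclidean distance of the log2 values over the 3 replicates, among 6090 genes. For srl they were CG7849 and l(2)k09848, which share a region (distance 0.0669), and for ewg CG5989 and CG6282, which also share a region (0.0801). For CycD they were baz, a cell polarity gene (0.0692), and tth (0.0692). For the Cdk4 promoter they were the kinase gene Wnk (0.0543) and FRG1 (0.0583). For the outer ERR peak they were Mfe2, for a peroxisomal enzyme of fatty acid breakdown (0.0976), and SdhC, for a subunit of succinate dehydrogenase (0.108). A small distance says only that the signals were of like size in each replicate.

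**Figure D4:**
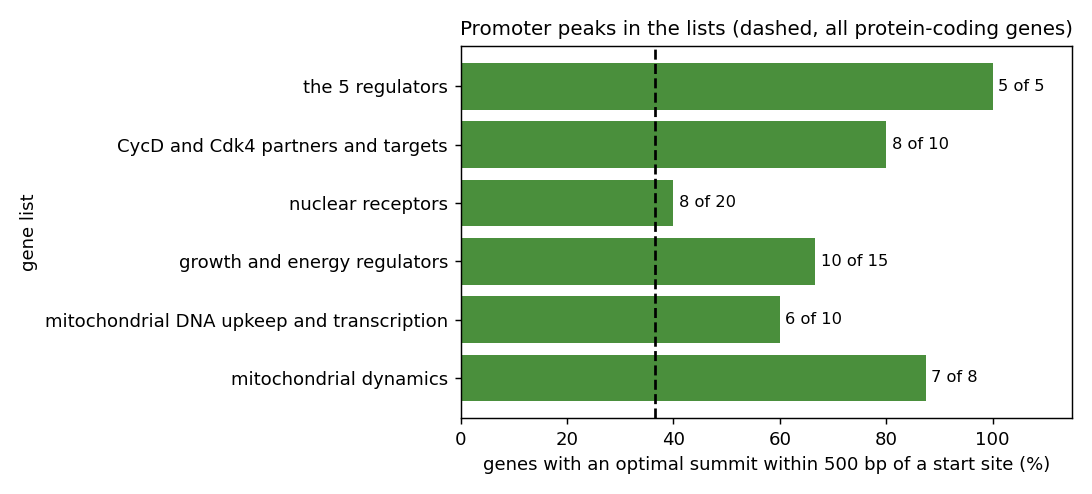
Share of genes with an optimal summit within 500 bp of a start site of their own (x axis, %) in the 5 regulators and in 5 lists of related genes, with the counts beside the bars and the dashed line at the 36.5% of all protein-coding genes. Nuclear receptors, with 8 of 20, lie near the line and the other lists to the right of it.

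Genes around the 5 regulators were read in the same way, with the background of 36.5%. Of 10 partners and targets of CycD and Cdk4, 8 had an optimal promoter peak. The highest pooled signals were at Dp (416), the dimer partner of E2F, in a region shared with Fsn, at the retinoblastoma relative Rbf2 (385), shared with CG32856, and at Cdk2 (317), the kinase of Cyclin E. Without one were dap, an inhibitor of Cyclin E and Cdk2, and stg, the Cdc25 phosphatase gene. With the strongest regions of replicates 1, 2 and 3 the count was 8, 8 and 7. The median signal of the 8 peaks, the strongest of each gene, was 221. All optimal promoter peaks, weaker second peaks of a gene included, had a median of 173, so these medians are not like for like.

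Of 20 other nuclear receptors, 8 had a promoter peak, which is close to the background. Hr96 (457, shared with EMC6), a receptor tied to lipid metabolism and toxins, Hr39 (444, shared with CG31626) and Hr78 (197) led. Neither dsf nor the ecdysone receptor gene EcR had one. Of 15 growth and energy regulators, 10 had one, led by CrebB (555), Keap1 (383, shared with kuk), which restrains the Nrf2 relative cnc, and sima (218), the fly HIF alpha. AMPKalpha, the energy-sensing kinase subunit, and foxo had no optimal peak within 500 bp of a TSS, though AMPKalpha had a summit there among the strongest regions of 2 replicates. All 15 genes of this list had an optimal peak in the gene or within 2000 bp, where 51.7% of all genes did. That share was not matched to the locus lengths of this list, and longer loci have more room for a summit.

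Genes that act in the mitochondrion were read last. Of 10 genes for upkeep and transcription of mitochondrial DNA, 6 had a promoter peak. PolrMT (217, shared with CG14339), the mitochondrial RNA polymerase gene, mtSSB (185), for the single-strand binding protein, and mTTF (183), for a transcription termination factor, had the highest signals. No promoter peak was found at mtDNA-helicase and mtTFB2. Both were among the 8 of 10 with an optimal peak in the gene or within 2000 bp, where 51.7% of all genes did. TFAM and PolG1 had no optimal peak at the promoter or elsewhere in the locus. Of 8 genes of mitochondrial dynamics, 7 had a promoter peak. They were led by milt (657), an adaptor for transport along microtubules, Drp1 (332), the fission GTPase gene, and Fis1 (182). Opa1, for fusion of the inner membrane, had none. Medians of the peak signals in the last 4 lists ran from 167 for the receptors to 181 for mitochondrial dynamics. The outer ERR peak of 343, the ewg peak of 267 and the srl peak of 221 exceeded the highest signal of the mitochondrial DNA genes. The promoter peaks of CycD (190) and Cdk4 (90.6) did not.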

How the data were processed

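The files hold ChIP-seq region lists on dm6 for 3 replicates of 1 group, the pooled replicates and an optimal set. Per the file headers (the text deposited beside each sample), the lists hold peaks and background from alignments against a control. The signal per region is the authors' deposited value on a scale not stated, and so is the −log10 q value, used only as a description. Which aligner, peak caller and IDR threshold served is not given in the sources used here, nor are tool versions. Depth is unknown, as no read counts were used, and errors are the spread between replicates. The dm3 lists were not used here.

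A summit is the deposited offset added to the region's start, counted from 1. A replicate region matched a pooled summit when it was the nearest within 150 bp. Relative signal is a region's signal over the median of that replicate's 5595 strongest regions. Genes were the Ensembl release 115 protein-coding models, sequence was RefSeq Release 6, and region ends on 7 chromosomes lay within its lengths. Words were sought on both strands, wholly within 50 bp of a summit. P-values came from exact sign-flip permutation tests, adjusted by Benjamini-Hochberg over 8 pairs. The lists of related genes held 64 names, of which 63 matched 1 gene each. Named genes were the 5 regulators, Ets97D, genes with a TSS within 500 bp of their optimal summits, the 3 strongest promoter peaks of each list, the first 2 genes of each list by alphabet that lacked one, and the 2 genes most like each regulator. Neighbouring genes were named besides to place a region, and TFAM and PolG1 as genes of their list without an optimal peak in the locus. The 5 genes and the lists were chosen with earlier results of these data known. Procedures were tested on simulated data. The work was done in Python 3.11.15 with pandas 2.3.3, NumPy 2.4.6 and SciPy 1.17.1, and figures with matplotlib 3.10.9.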

Additional observations from a re-analysis of the deposited data

How the results depend on the processing

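The count of 5 genes with an optimal peak in the locus stayed 5 under all 7 alternatives of distance, overlap and threshold, while the background moved between 34.0% and 78.8%. The promoter count of 5 (background 36.5%) became 4 within 250 bp, where CycD was lost and the background was 32.0%. It was 4 with the 50% of peaks of highest signal (background 22.1%). With peaks strong in all 3 replicates it was also 4 (background 29.3%), and Cdk4 was lost in both. With the strongest regions of replicate 1 it was 3 (background 35.6%). Scaled to the median of each replicate's whole list, which holds weaker regions, the relative signals became 5.04 for srl, 4.40 for CycD, 1.80 for the Cdk4 promoter, 5.76 for ewg, 7.70 for ERR and 37.3 for the RpLP2 peak in the Cdk4 locus, in the same order. Leaving out each replicate gave 1.27 to 1.47 for srl, 1.15 to 1.22 for CycD, 0.446 to 0.512 for the Cdk4 promoter, 1.53 to 1.60 for ewg, 1.95 to 2.23 for ERR and 9.47 to 10.6 for the RpLP2 peak. With 25 bp either side of the summit, 3 of 9 optimal summits held a word, again without a background share. With 100 bp, 1 held an ETS word, that at the Cdk4 promoter, also without a background share. Matching within 75 bp gave no value for the Cdk4 promoter, since the summit of replicate 3 lay farther away. No paired analysis was possible because there was only 1 group to compare, so replicate numbers paired peaks within a replicate, in the order of signals, and not groups. Depth is unknown, so a region not listed in a replicate is not shown to be absent from it.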
